A study of Arabidopsis thaliana with 20 samples.

Results

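The comparison described here asks whether a transcript's recovery by NAD capture, set against its level in total RNA, differed between dxo1 and Col-0 flower buds of Arabidopsis thaliana. It rests on 8 of the 20 libraries of the series, chosen by their labels alone: 2 each of NAD capture and total RNA from Col-0 and from dxo1. Per the labels, plants grew with 16 h of light and 8 h of dark, and unopened buds were taken at about 4 weeks. Col-0 is labelled wildtype. For dxo1 the labels give neither the allele nor the number of plants behind a library, and they do not describe the capture chemistry. Whether replicate libraries stem from different plants is not stated either, and p-values then measure a spread between libraries that may be technical.

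Most plant messenger RNAs begin with a methylated guanosine cap, but the metabolite NAD can take the place of the first adenosine when transcription starts, which leaves an NAD cap. Enzymes of the DXO family, to which Arabidopsis DXO1 belongs, cut NAD off the 5′ end and so expose the RNA to decay. The capture ratio of a gene is its log2 level in NAD capture minus its log2 level in total RNA. The quantity of interest is this ratio in dxo1 minus the ratio in Col-0, called the ratio difference below. It equals the capture change (dxo1 minus Col-0 in the capture libraries) minus the total RNA change (the same in the total RNA libraries), so a ratio can differ because capture moved, because total RNA moved, or both. Levels are given as CPM, counts scaled to a common library size, and compare 1 gene between libraries, not genes with each other.

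Libraries came to between 1144896 and 3178702 gene counts in capture and between 2576448 and 8309456 in total RNA. Replicate 1 of Col-0 capture stood apart from the rest. Of its gene counts 26.4% were mitochondrial, 11.5% plastid and 14.2% nuclear ribosomal RNA, and nuclear protein-coding genes made up 44.0%, against 8.67%, 5.88%, 6.83% and 76.9% in replicate 2. The log2 CPM of both Col-0 capture libraries correlated with r = 0.804 across genes, while the replicate pairs of the other 3 groups reached 0.957 to 0.974. The DXO1 transcript (AT4G17620) went against the label of a dxo1 library. In total RNA it stood at 32.9 and 29.0 CPM in Col-0, and at 612 and 11.0 CPM in the libraries labelled dxo1 replicates 1 and 2. In capture it stood at 14.0 and 25.2 CPM in Col-0 and 17.83 and 17.59 CPM in dxo1. The library labelled dxo1 polyA replicate 1, of a further set used below as a second reference, was high as well, at 430 CPM against 16.6 CPM in its replicate 2 and 42.0 and 42.7 CPM in Col-0. The labels do not explain the high values.

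No gene passed the test of the ratio difference. Of 17718 genes tested, 0 (0%) had an adjusted p under 0.05 in edgeR's quasi-likelihood test, and the lowest adjusted p was 0.269. At an unadjusted p under 0.05 there were 1332 genes (7.52%), of which 564 (3.18%) had a higher ratio in dxo1 and 768 (4.33%) a lower one. DESeq2 called 16 genes on the same libraries, 5 higher and 11 lower. The median ratio difference over all genes was -0.03. The separate changes did yield calls. Fitted alone, the total RNA libraries gave 2357 calls (14.1%) and the capture libraries 0, with 1611 genes at an unadjusted p under 0.05. In the fit of all 8 libraries, whose spread is estimated over the 4 groups together, 134 genes (0.756%) were called in capture. Of these 12 were higher (0.0677%) and 122 lower (0.689%) in dxo1. In total RNA 175 genes (0.988%) were called, 72 higher (0.406%) and 103 lower (0.581%), all of them among the 2357. Those calls were not stable to the loss of a library: leaving out any 1 of the Col-0 total RNA or dxo1 capture libraries left 0 calls in either change, with 1271 to 2632 genes still at an unadjusted p under 0.05. Without the library labelled dxo1 total RNA replicate 1, capture had 43 calls and total RNA 0 (1953 at an unadjusted p under 0.05); without its replicate 2 they had 42 and 1. Without replicate 1 or 2 of Col-0 capture there were 1734 and 2621 calls in capture, and without replicate 1 there were 2220 in total RNA.

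The spread between replicate libraries was widest in Col-0 capture. Over all genes the middle 50% of replicate differences spanned 1.28 log2 units in Col-0 capture, 0.54 in dxo1 capture, and 0.44 and 0.47 in total RNA of Col-0 and dxo1. The ratio difference spanned 0.83, the capture change 0.79 and the total RNA change 0.62. These changes rest on 2 libraries per group, whereas replicate differences set single libraries against each other, so the spans are not on the same scale. With Col-0 capture replicate 1 left out 187 genes were called in the ratio difference, and with replicate 2 left out 1706; the remaining Col-0 capture library is then assumed to vary like the other groups.

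**Figure D1:**
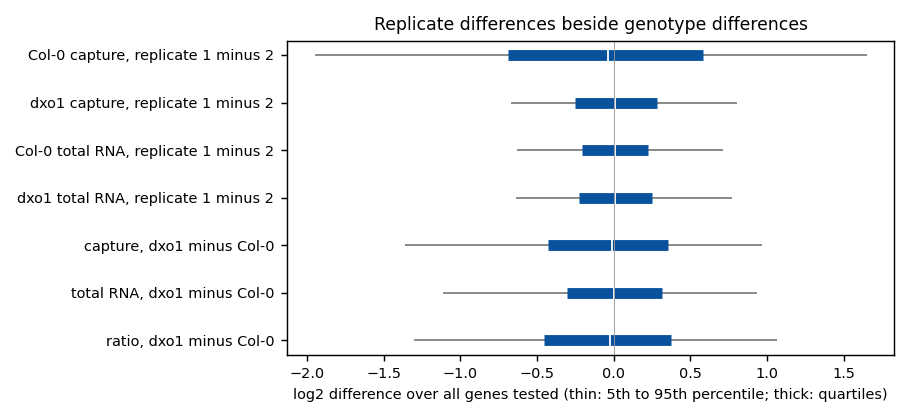
Spread of log2 differences over the 17718 genes tested, with the thin lines reaching from the 5th to the 95th percentile, the thick bars covering the quartiles and the white ticks marking the medians. The bar for Col-0 capture replicates is the widest, at 1.28 log2 units, and the ratio difference spans 0.83. Replicate bars compare single libraries and genotype bars groups of 2, so their widths are not on the same scale.

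The ratio difference was split by which of its parts met the same limit. Among the 564 genes with a higher ratio at an unadjusted p under 0.05, 226 (40.1%) met that limit in total RNA alone and 219 (38.8%) in capture alone. Among the 768 genes with a lower ratio, 416 (54.2%) met it in capture alone and 208 (27.1%) in total RNA alone. Opposite movement in both met it for 17 and 23 genes. On the lower side capture alone outnumbered total RNA alone in all 17 alternatives run, and on the higher side in 5 of them, for example 540 against 359 genes without Col-0 capture replicate 1. The counts themselves were unstable, and 41 of the 68 values under the alternatives moved by over 1.5 times. Over all genes the limit was met in capture by 6.92% on the higher and 10.8% on the lower side, and in total RNA by 7.47% and 7.07%. These counts describe how the parts add up and share their libraries with the ratio difference, so they are no separate test of it.

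Capture and total RNA share no library, so their changes can be set against each other directly. Across the 17718 genes the correlation of both changes was 0.402 by Pearson's r and 0.375 by Spearman's rho, as a description, since genes are not independent replicates. Of the 103 genes that fell in total RNA, 89 also had a negative capture change, with a median of -1.75 in total RNA and -1.13 in capture. Of the 72 genes that rose in total RNA, 68 had a positive capture change, with medians of 1.72 and 0.83. The capture change was thus smaller than the total RNA change in both directions, a pattern that choosing genes by their total RNA change favours. Among the 122 genes that fell in capture the median was -2.12 in capture and -1.10 in total RNA, and 24 genes fell in both.

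**Figure D2:**
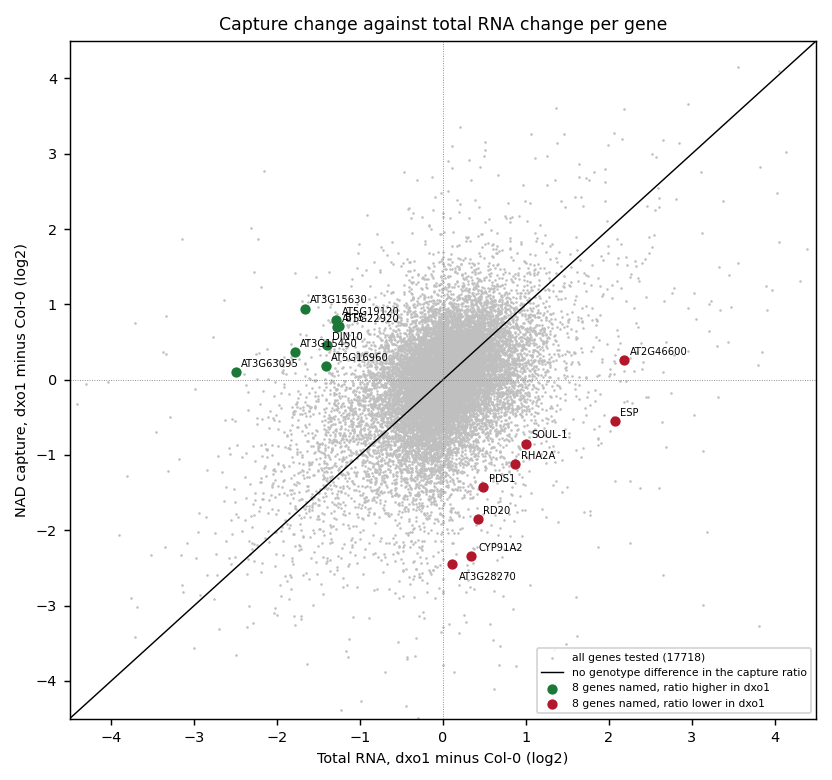
Capture change against total RNA change (both log2, dxo1 minus Col-0), 1 point per gene, with the diagonal where the ratio does not differ; 44 of the 17718 genes lie outside the axes. The 8 named genes with a higher ratio (green) sit left of 0 in total RNA, and 4 of the 8 with a lower ratio (red) sit below -1.4 in capture.

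The genes with the clearest higher ratio in dxo1 had less total RNA there, while none of them passed the test in capture. The 8 genes named on this side were AT5G19120, AT5G22920 (RZPF34, a RING zinc-finger protein), AT3G15630, AT3G63095, AT3G15450, BT5, DIN10 and AT5G16960. Their total RNA changes lay between -2.50 and -1.25, and 6 of the 8 fell by the test of total RNA, all but AT3G15630 (adjusted p = 0.0593) and BT5 (adjusted p = 0.0617). Their capture changes lay between 0.10 and 0.94, all above 0. Over all genes tested 103 (0.581%) fell in total RNA. The 8 were chosen by the ratio difference, of which both changes are parts, so these values describe them and are no separate test.

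In total RNA AT3G15450 stood at 277 and 288 CPM in Col-0 and 79.8 and 83.9 CPM in dxo1, and in capture at 261 and 444 CPM in Col-0 and 482 and 429 CPM in dxo1. Total RNA was thus lower in both dxo1 libraries than in both Col-0 libraries, while the capture values overlapped. The total RNA change was -1.79 (SE 0.288, adjusted p = 0.0326) and the ratio difference 2.15 (SE 0.400, adjusted p = 0.317).

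AT5G19120 fell in total RNA (adjusted p = 0.0432), while its capture change of 0.79 did not pass (adjusted p = 0.1335). Its total RNA level was 41.4 and 40.6 CPM in Col-0 and 14.9 and 18.4 CPM in dxo1, and its capture level 47.7 and 67.2 CPM in Col-0 and 96.0 and 107 CPM in dxo1. The genotypes did not overlap in either kind of library, and the ratio difference was 2.08 (SE 0.344, adjusted p = 0.269). AT3G15630 showed the same arrangement at a lower level, with 12.2 and 12.5 CPM in Col-0 total RNA, 4.97 and 3.14 CPM in dxo1 total RNA, 18.6 and 33.8 CPM in Col-0 capture and 58.0 and 48.7 CPM in dxo1 capture. Its ratio difference was 2.61 (SE 0.458, adjusted p = 0.317). Neither its capture change (0.94, adjusted p = 0.1385) nor its total RNA change (-1.67, adjusted p = 0.0593) passed.

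DIN10 encodes a raffinose synthase-like protein known for its induction in the dark and under sugar shortage. In total RNA it stood at 124 and 138 CPM in Col-0 and 60.8 and 38.7 CPM in dxo1, and in capture at 60.5 and 84.6 CPM in Col-0 and 103 and 99.7 CPM in dxo1. It fell in total RNA by 1.40 on the log2 scale (adjusted p = 0.0445), and the ratio difference was 1.86 (SE 0.389, adjusted p = 0.390). BT5, a BTB and TAZ domain protein, had 16.9 and 20.5 CPM in Col-0 total RNA against 7.60 and 7.85 CPM in dxo1, and 32.6 and 24.8 CPM in Col-0 capture against 51.2 and 39.2 CPM in dxo1. AT3G63095 had the deepest fall of the 8 in total RNA, from 79.9 and 77.5 CPM to 18.4 and 10.3 CPM, at capture levels that overlapped (19.8 and 40.4 CPM in Col-0, 35.4 and 32.9 CPM in dxo1).

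PolyA RNA of the same genotypes, sequenced in 4 further libraries, gives a second reference for these genes. The answer depended on which dxo1 polyA library was read. The polyA change of the 8 lay between -0.55 and 0.80 with replicate 1 alone, the library of high DXO1, and between -2.46 and -0.20 with replicate 2 alone. Replicate 2 lay below both Col-0 libraries for all 8 genes and replicate 1 for 5 of them. AT3G63095 stood at 55.5 and 57.8 CPM in Col-0 polyA RNA and at 46.6 and 10.3 CPM in dxo1, and DIN10 at 211 and 225 CPM in Col-0 and 164 and 77.4 CPM in dxo1. For AT3G15630, at 22.7 and 18.8 CPM in Col-0 and 29.4 and 12.9 CPM in dxo1, the dxo1 libraries lay on opposite sides of Col-0.

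The genes with the clearest lower ratio divided into those lower in capture and those higher in total RNA. Of the 8 named, RD20, AT3G28270, PDS1 and CYP91A2 fell in capture, while ESP and AT2G46600 rose in total RNA. RHA2A and SOUL-1 had capture changes of -1.12 and -0.85 and total RNA changes of 0.87 and 1.00, none of which passed. Over all genes 122 (0.689%) fell in capture and 72 (0.406%) rose in total RNA, and a fit of the capture libraries alone called 0 genes. These 8 were also chosen by the ratio difference, so its parts are no separate test here.

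RD20 encodes a caleosin, a calcium-binding lipid-droplet protein induced by drought and abscisic acid. In total RNA it stood at 134 and 162 CPM in Col-0 and 210.1 and 185 CPM in dxo1, and in capture at 268 and 249 CPM in Col-0 and 77.7 and 65.0 CPM in dxo1. Captured RD20 was lower in both dxo1 libraries, and its total RNA was not. The capture change was -1.85 (SE 0.242, adjusted p = 0.0201), the total RNA change 0.42 (SE 0.231, adjusted p = 0.454) and the ratio difference -2.27 (SE 0.333, adjusted p = 0.269).

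AT3G28270 followed RD20. It had 14.7 and 20.5 CPM in Col-0 total RNA, 17.8 and 19.1 CPM in dxo1 total RNA, 30.2 and 48.7 CPM in Col-0 capture and 7.74 and 7.22 CPM in dxo1 capture. Its capture change was -2.44 (SE 0.314, adjusted p = 0.0201). CYP91A2, the cytochrome P450 also called CYP81F1, had 77.9 and 31.4 CPM in Col-0 capture and 10.1 and 9.92 CPM in dxo1 capture, with 23.3 and 20.5 against 24.8 and 30.7 CPM in total RNA. PDS1, the 4-hydroxyphenylpyruvate dioxygenase of tocopherol and plastoquinone synthesis, had 45.4 and 67.2 CPM in Col-0 capture and 19.7 and 23.5 CPM in dxo1 capture (capture change -1.43, adjusted p = 0.0415).

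ESP, the epithiospecifier protein that directs the breakdown of glucosinolates towards nitriles, was instead higher in dxo1 total RNA. It stood at 13.5 and 11.1 CPM in Col-0 and 63.1 and 42.8 CPM in dxo1, and in capture at 50.0 and 30.5 CPM in Col-0 and 29.8 and 22.1 CPM in dxo1. The total RNA change was 2.07 (SE 0.312, adjusted p = 0.0326), the capture change -0.55 (SE 0.317, adjusted p = 0.397) and the ratio difference -2.62 (SE 0.445, adjusted p = 0.269). AT2G46600 rose from 13.5 and 14.7 CPM to 69.0 and 58.8 CPM in total RNA, while capture held 37.2 and 24.3 CPM in Col-0 and 37.5 and 32.5 CPM in dxo1. The polyA change had the sign of the total RNA change for both, at 1.36 for ESP and 1.41 for AT2G46600. It had the opposite sign for RD20, at -0.21, and AT3G28270, at -0.74, against total RNA changes of 0.42 and 0.10. With dxo1 polyA replicate 1 or 2 alone it was -0.62 and 0.11 for RD20 and -1.39 and -0.29 for AT3G28270. For PDS1, CYP91A2, RHA2A and SOUL-1 it was 0.04, 0.32, 1.09 and 0.70, with the sign of the total RNA change. With dxo1 polyA replicate 1 or 2 alone the sign differed for PDS1, at -0.06 and 0.14. CYP91A2, RHA2A and SOUL-1 stayed above 0 with either library.

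**Figure D3:**
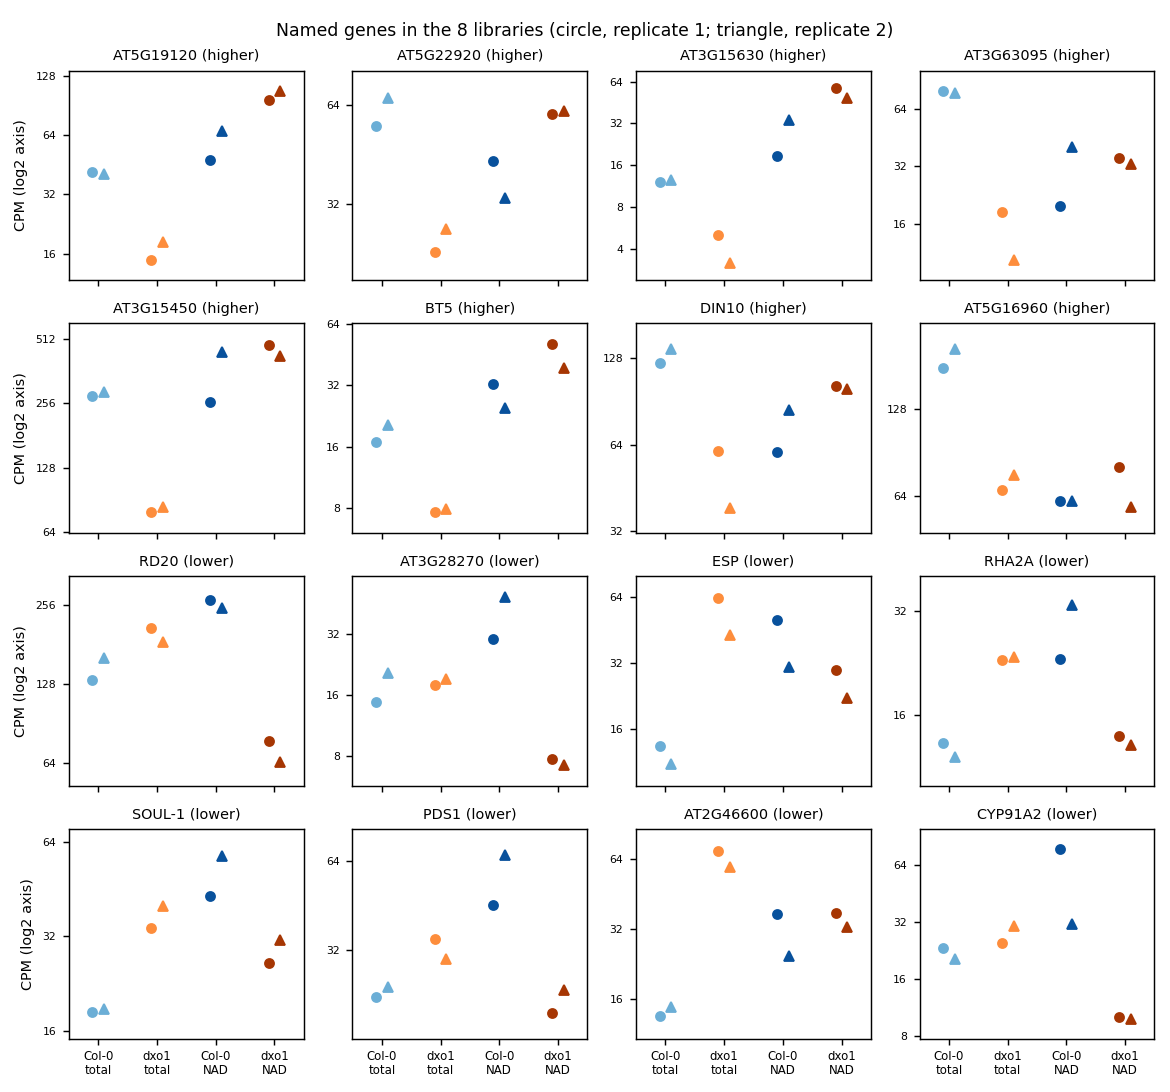
CPM (log2 axis) of the 16 named genes in the 8 libraries, circles for replicate 1 and triangles for replicate 2. In the 8 panels marked higher, both dxo1 total RNA values lie below both Col-0 values; in the RD20 panel, the dxo1 capture values of 77.7 and 65.0 CPM lie below the Col-0 values of 268 and 249.

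A set of 61 genes was called in the same direction whichever Col-0 capture library was left out, 31 with a higher and 30 with a lower ratio in dxo1. The set was drawn after the values were seen and from these same libraries, so it describes them and is no independent support. Of the 31 higher genes, 24 had a total RNA change below -1 and 9 a capture change above 1. Of the 30 lower genes, 22 had a capture change below -1 and 6 a total RNA change above 1. All genes of the set had ratios that did not overlap between the genotypes, against 12.1% higher and 11% lower over all genes. Among them were 15 of the 16 genes called by DESeq2. The choice of the set favours the former, and DESeq2 used the same counts, so neither adds support.

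A few members of the set are named here, chosen after their values were seen, and no theme was tested. SUS3, a sucrose synthase, had a ratio difference of -3.50 and a capture change of -3.22, and C/VIF1, an inhibitor of invertase, -3.10 and -2.82. ATSPS4F, a sucrose phosphate synthase, had a ratio difference of -1.63. On the other side were BMY3, a beta-amylase family member, at 1.42, AKINBETA1, a regulatory subunit of the energy sensor kinase SnRK1, at 1.86, and STP2, a hexose transporter of the male gametophyte, at 2.87. P5CS1, which makes proline, had -1.63, and ERD5, the proline dehydrogenase that breaks it down, 1.296.

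Gene groups were then followed through both parts of the ratio difference. They are described by counts and medians beside those over all genes, for which the ratios of the genotypes did not overlap in 2142 genes (12.1%) on the higher side and 1951 (11%) on the lower side. Of all genes tested 8541 had a ratio difference above 0 and 9177 below 0. At an unadjusted p under 0.05 the ratio was higher for 3.18% and lower for 4.33% of them. By the test 0.0677% of all genes rose and 0.689% fell in capture, and 0.406% rose and 0.581% fell in total RNA.

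The tapetum is the cell layer of the anther that feeds developing pollen and supplies the pollen wall. Of 28 tapetum and pollen wall genes tested, 23 had a higher ratio in dxo1, 14 of them at an unadjusted p under 0.05 against 1 on the lower side, and 18 had ratios that did not overlap. The median ratio difference was 0.95, made of a median total RNA change of -1.21 and a median capture change of -0.10. In total RNA 8 of the 28 fell and 0 rose, and in capture 2 fell and 0 rose. In a bulk sample, fewer tapetum cells and less RNA per cell cannot be told apart. The summed level of the 28 genes was 6743 and 6464 CPM in Col-0 total RNA and 2548 and 2385 CPM in dxo1, against 3512 and 5210 CPM in Col-0 capture and 2930 and 2714 CPM in dxo1 capture.

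LTP12, a tapetum lipid transfer protein, was the member of lowest p. It stood at 302 and 309 CPM in Col-0 total RNA and 129 and 98.7 CPM in dxo1, and at 187 and 228 CPM in Col-0 capture and 279 and 201 CPM in dxo1 capture. Its total RNA fell by 1.43 on the log2 scale (adjusted p = 0.0404) at overlapping capture levels. CYP703A2, which hydroxylates fatty acids for sporopollenin, fell in total RNA from 41.4 and 42.3 CPM to 11.7 and 18.7 CPM, with capture at 24.4 and 25.6 CPM in Col-0 and 24.2 and 24.8 CPM in dxo1. AMS, the transcription factor ABORTED MICROSPORES, had 126 and 129 CPM in Col-0 total RNA, 57.9 and 89.9 CPM in dxo1 total RNA, 45.4 and 56.1 CPM in Col-0 capture and 71.3 and 110.1 CPM in dxo1 capture. The group's median ratio difference was 0.79 without Col-0 capture replicate 1, 1.42 without replicate 2 and 0.72 without both dxo1 replicate 1 libraries. Against polyA RNA as the reference it was 0.50, with 1 gene at an unadjusted p under 0.05, and 0.32 and 0.79 with dxo1 polyA replicate 1 or 2 alone.

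Of 14 genes of late pollen and sperm tested, 4 fell in capture and 3 in total RNA. The median total RNA change was -1.40, the median capture change -1.19 and the median ratio difference 0.12. That last median was 0.46 without both dxo1 replicate 1 libraries, 0.53 without Col-0 capture replicate 2 and -0.28 without dxo1 total RNA replicate 2. Of the sperm marker GEX2 there was no count in any of the 8 libraries. STP9, a pollen sugar transporter, had 17.1 and 20.1 CPM in Col-0 total RNA, 6.43 and 6.57 CPM in dxo1 total RNA, and overlapping capture values of 26.8 and 45.8 CPM in Col-0 and 38.0 and 32.5 CPM in dxo1. SCA3, matched to the list by its symbol, encodes a plastid RNA polymerase and is not a pollen marker.

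Markers of other floral parts were followed in the same way. CRC, a carpel and nectary transcription factor that the floral identity and carpel lists share, had 8.76 and 5.35 CPM in Col-0 total RNA, 1.46 and 2.86 CPM in dxo1 total RNA, 9.30 and 11.1 CPM in Col-0 capture and 18.1 and 13.1 CPM in dxo1 capture. The median over 9 carpel and nectary markers was 0.75, and over 15 floral identity genes 0.21, which was 0.07 and 0.93 without Col-0 capture replicates 1 and 2. The list of petal and sepal markers includes LOX2 and TPS21, and whether its members mark these organs was not tested. All 8 members tested had a lower ratio, with a median of -0.78, and 2 fell in capture, TPS21 among them, and 1 in total RNA. That median was -0.41 without both dxo1 replicate 1 libraries. With polyA RNA as the reference it was -0.09, and 0.44 and -0.52 with dxo1 polyA replicate 1 or 2 alone. Over 10 genes of meristems and dividing cells the median was 0.25, and 0.77 without Col-0 capture replicate 2; CLV3, the stem cell signal of the shoot meristem, had no count in any of the 8 libraries.

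Of 29 tested genes known to respond to abscisic acid or abiotic stress, 23 had a lower ratio, 6 of them at an unadjusted p under 0.05 and 0 on the higher side, with a median of -0.56. The capture change had a median of -0.54 and the total RNA change 0.06. In capture 3 genes fell, RD20, P5CS1 and LTI65, and in total RNA none of the 29 passed. P5CS1 stood at 238 and 279 CPM in Col-0 total RNA and 316 and 263 CPM in dxo1, and at 233 and 278 CPM in Col-0 capture and 83.1 and 102 CPM in dxo1 capture. LTI65 (RD29B), a late stress-response protein, had 11.6 and 14.9 CPM in Col-0 capture, 0.235 and 0 CPM in dxo1 capture, and at most 0.877 CPM in any total RNA library. Its counts were 10 and 36 in Col-0 capture and at most 3 in any other library. It thus passed the filter on low counts only through the group where it is high, and its fall in capture adds no support. The median of the list depended on the Col-0 capture library used, at -0.92 without replicate 1 and 0.17 without replicate 2. Without both dxo1 replicate 1 libraries it was -0.19.

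Of 23 defence genes of the salicylic acid pathway tested, 4 rose and 0 fell in total RNA and 1 rose and 0 fell in capture, with median changes of 1.35 and 0.96. Without Col-0 capture replicate 1 the order of the medians turned, at 1.42 in total RNA and 1.77 in capture. The ratio was lower for 18 of the 23, with a median difference of -0.49. PAD4, a lipase-like regulator of salicylic acid signalling, stood at 1.92 and 0.891 CPM in Col-0 total RNA and 24.0 and 12.3 CPM in dxo1, and at 15.1 and 3.30 CPM in Col-0 capture and 12.4 and 15.8 CPM in dxo1 capture. WRKY46, a transcription factor of the same response, had 2.78 and 3.57 CPM in Col-0 total RNA and 52.9 and 39.4 CPM in dxo1, with 24.4 and 1.24 CPM in the Col-0 capture libraries and 19.7 and 22.1 CPM in dxo1 capture. Replicate 1 of Col-0 capture was the higher one for both genes. Without it the median of the list was 0.14 and without replicate 2 it was -1.29, so the sign of the defence genes' ratio difference rested on that library.

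Genes of RNA decay and of the NAD pathway gave no member at an unadjusted p under 0.05. The median ratio difference was -0.02 over 21 RNA decay genes, 0.20 over 13 genes of NAD synthesis and salvage and 0.39 over 14 Nudix hydrolases, a family some of whose members cleave NAD. Among 25 small RNA pathway genes 2 lay on each side. AGO9, an Argonaute of the germ line, had 57.7 and 61.9 CPM in Col-0 total RNA and 36.5 and 28.8 CPM in dxo1, at capture levels of 36.1 and 30.5 CPM in Col-0 and 39.0 and 37.0 CPM in dxo1. NRPD1B, the largest subunit of RNA polymerase V, had 59.3 and 26.4 CPM in Col-0 capture and 12.0 and 14.0 CPM in dxo1 capture at overlapping total RNA levels. Cytosolic ribosomal protein genes had positive median changes of 0.52 in capture and 0.56 in total RNA, and a median ratio difference of 0.02 over 25 genes. Over 41 nuclear photosynthesis genes, 12 had ratios that did not overlap on the higher side and 0 on the lower, with a median of 0.24; PSAL, a photosystem I subunit, had the lowest p, at a difference of 1.13 (SE 0.395, adjusted p = 0.643).

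Among 16 circadian clock genes 13 had a lower ratio (9177 of 17718 over all genes), with a median of -0.21. The ratios did not overlap for 4 of them on the lower and 3 on the higher side, and the highest difference was 1.04. PRR9, a morning-phased repressor of the clock, had 20.9 and 21.9 CPM in Col-0 capture and 14.3 and 9.47 CPM in dxo1 capture, with 16.0 and 17.8 against 21.9 and 22.6 CPM in total RNA. LHY, a morning transcription factor, had 38.4 and 12.0 CPM in Col-0 capture and 7.27 and 8.12 CPM in dxo1 capture. CSD1, the cytosolic copper/zinc superoxide dismutase and not a clock gene, had a higher ratio. It stood at 143 and 218 CPM in Col-0 capture and 347 and 351 CPM in dxo1 capture, with 210.4 and 185 against 213 and 161 CPM in total RNA. The differences were -1.22 for PRR9, -1.52 for LHY and 1.02 for CSD1, with adjusted p between 0.627 and 0.644.

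**Figure D4:**
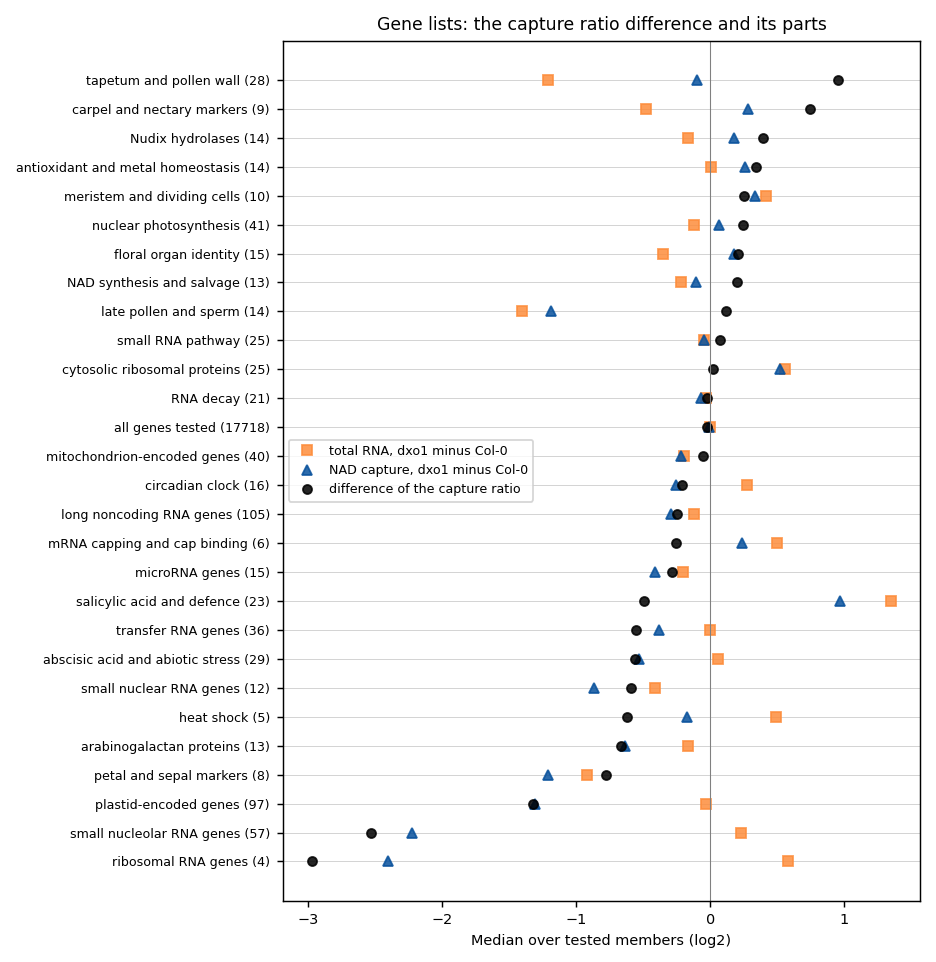
Median log2 total RNA change, capture change and ratio difference over the tested members of each gene list, with the number tested in parentheses. Tapetum genes have the highest median ratio difference, 0.95, with the total RNA change at -1.21; ribosomal RNA, small nucleolar RNA and plastid-encoded genes have the lowest, with the total RNA change near or above 0.

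The ribosomal RNA, small nucleolar RNA and plastid lists had the lowest median ratio differences, and each median moved towards 0 without Col-0 capture replicate 1. Of 97 plastid-encoded genes 93 had a lower ratio and 19 reached an unadjusted p under 0.05, with a median of -1.32. That median was -0.03 without replicate 1 of Col-0 capture and -1.95 without replicate 2. The plastid genes summed to 152700 CPM in that library, 43840 CPM in replicate 2, and 42950 and 30810 CPM in dxo1 capture, while the 4 total RNA libraries lay between 107800 and 112000 CPM. For 57 small nucleolar RNA genes, which guide chemical modification of ribosomal RNA, the median was -2.53, and -0.64 and -3.22 without replicates 1 and 2. Their total RNA reference lay near the floor, with a median of 0.30 to 0.57 log2 CPM in the total RNA libraries. In those libraries 8 to 19 of the 57 small nucleolar RNA genes had no count. For 4 ribosomal RNA genes the median was -2.98, and -0.34 and -3.72. Among them AT3G41979 was called lower whichever Col-0 capture library was left out, at 347 and 47.9 CPM in Col-0 capture and 14.8 and 12.6 CPM in dxo1 capture. AT1G74456, a small nucleolar RNA gene, showed the order of the libraries, with 202 CPM in Col-0 capture replicate 1, 98.2 in replicate 2, and 58.9 and 32.5 CPM in dxo1 capture, against 2.35 to 4.85 CPM in total RNA. Genes of these classes have near-identical copies, for which the counts are uncertain.

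For 40 mitochondrion-encoded genes the sign depended on the Col-0 capture library. The median ratio difference was -0.06, with 4 higher and 2 lower at an unadjusted p under 0.05. The median was 0.42 without Col-0 capture replicate 1, and -0.19 without replicate 2. Their summed level was 352100 and 64600 CPM in Col-0 capture and 71210 and 81620 CPM in dxo1 capture. ATMG00670 had 77.9 and 61.1 CPM in Col-0 capture and 123 and 155 CPM in dxo1 capture, at overlapping total RNA levels, and belonged to the 61 genes above. Among 105 long noncoding RNA genes 1 was higher and 4 lower at that limit, with a median of -0.25, which was 0.05 without Col-0 capture replicate 2. AT5G15022, a long noncoding RNA gene, had 886 CPM in Col-0 capture replicate 1, 181 in replicate 2, and 146 and 114 CPM in dxo1 capture. The median was -0.28 over 15 microRNA genes, with MIR167a and MIR168a higher at that limit, -0.56 over 36 transfer RNA genes and -0.60 over 12 small nuclear RNA genes, whose U2 copies are near-identical and so uncertain. Without Col-0 capture replicate 1 these medians were 0.46, 1.02 and 0.38, and that of the transfer RNA genes was -3.70 without dxo1 capture replicate 1, so no direction is given for them. The protein-coding lists not yet described had medians of -0.26 over 6 genes of messenger RNA capping and cap binding, -0.63 over 5 heat shock genes, -0.67 over 13 arabinogalactan protein genes and 0.34 over 14 antioxidant and metal homeostasis genes, the list of CSD1. Without Col-0 capture replicate 2 the heat shock median was 0.07.

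**Figure D5:**
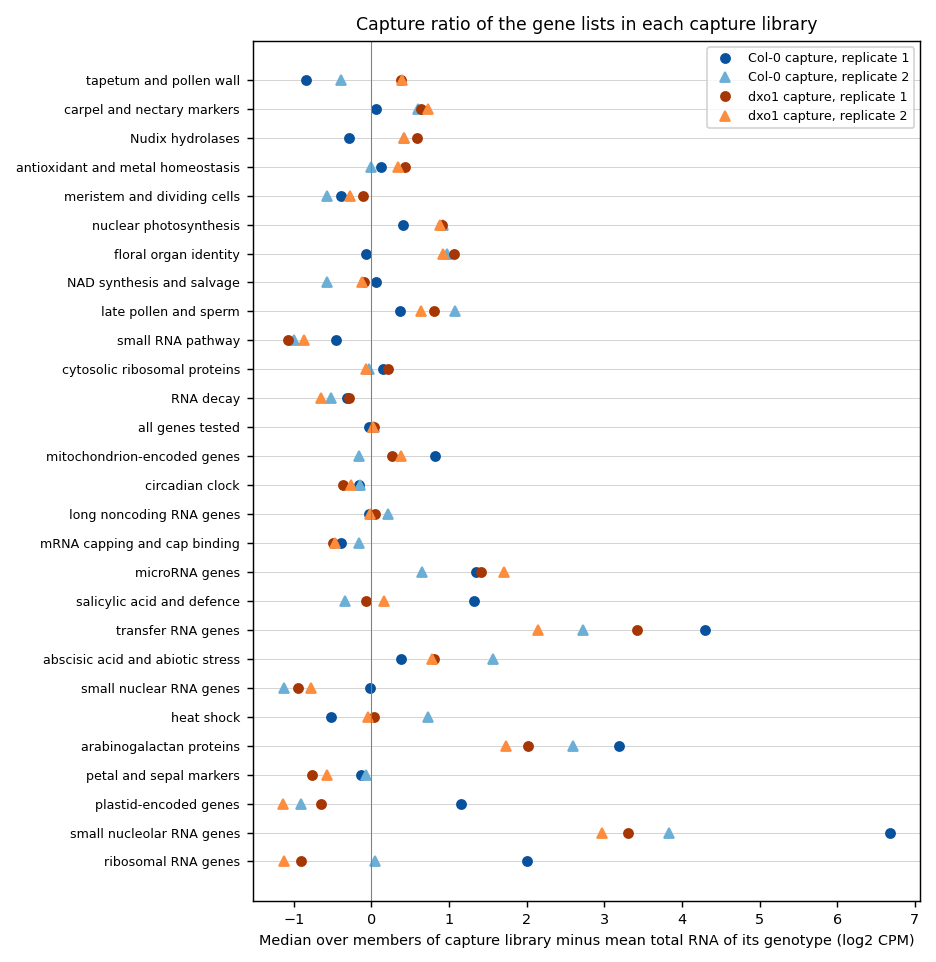
Median capture ratio of each gene list in the 4 capture libraries, as log2 CPM of the library minus the mean log2 CPM of total RNA of its genotype. For plastid, ribosomal and small nucleolar RNA genes Col-0 replicate 1 (dark blue circle) lies far to the right of the other 3 libraries, whereas for tapetum genes both dxo1 libraries lie right of both Col-0 libraries.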

How the data were processed

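NAD capture, total RNA and, as a second reference, polyA RNA libraries were used. Raw counts for 28775 genes were deposited for each library, which the authors made with cutadapt, STAR 2.4.2a, HTSeq and the TAIR10 build, per the submitters' processing notes; settings are not given in the sources used here. The 5 HTSeq special entries, left out of all totals, held 91.8 to 96.1% of reads in capture and 90.8 to 91.2% in total RNA, mostly reads with several matches. Per the labels, reads were 50 nt, single-end and strand-specific. Symbols come from RefSeq TAIR10.1 for 28009 genes.

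In R 4.3.3, edgeR 4.0.16 fitted the 8 libraries as 4 group means (filterByExpr with a minimum count of 10, TMM factors, quasi-likelihood F test, two-sided, Benjamini-Hochberg adjustment over 17718 genes, 4 residual degrees of freedom). CPM use TMM-scaled library sizes, log2 CPM a prior count of 2. The SE is the absolute log2 change over the square root of F. Code was tested on simulated data. Replicates of a group differed by more than sampling noise, with a chi-square per degree of freedom of 2.26 to 33.7. No replicate block was used in the main fit, because the labels do not say that a replicate number marks shared plants. Replicate differences of 2 groups correlated between -0.05 and 0.05 across genes, which cannot exclude shared plants.

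Members and the 27 gene lists were chosen with earlier results of these data known. Named were DXO1; the 8 higher and 8 lower nuclear genes of lowest p of the ratio difference among those above the median level with ratios not overlapping; and up to 3 members per list of lowest p. Of these, the text describes those its statements turn on. DESeq2 1.42.0 and other scalings, filters, blocks, references and left-out libraries were alternatives.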

Additional observations from a re-analysis of the deposited data

How the results depend on the processing

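The zero count of genes in the ratio difference held in 15 alternatives and gave way in 4: DESeq2 called 16 genes, no filter on low counts 287, and leaving out 1 library gave 0 to 1706. Only the 2 fits without a Col-0 capture library, at 187 and 1706, gave calls there, and they shared 61 genes in the same direction. The capture change had 134 calls, and 60 with upper-quartile factors, 0 with library totals, 244 over nuclear protein-coding genes alone, 449 with DESeq2, 1524 without a filter, 0 without both dxo1 replicate 1 libraries and 0 in the capture libraries alone, while leaving out 1 library gave 0 to 2621. The total RNA change had 175 calls, and 0 with library totals, 322 over nuclear protein-coding genes alone, 289 with DESeq2, 1081 without a filter, 0 without both dxo1 replicate 1 libraries and 2357 in the total RNA libraries alone, with 0 to 2220 when 1 library was left out. With the replicate block the ratio difference had 0 calls, capture 79 and total RNA 19, and with the replicate block within genotype 0, 43 and 0. Where edgeR gave 0 calls, 393 to 1761 genes had an unadjusted p under 0.05 in the ratio difference, 1309 to 2766 in capture and 1271 to 2271 in total RNA. The cause of these shifts was not tested.

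Library totals moved the median ratio difference of all genes to 0.35, with 795 genes higher and 172 lower at an unadjusted p under 0.05. Under them NCBP and EIF4E turned to 0.10 and 0.08. DXO1 turned from -3.54 to 1.27 without dxo1 total RNA replicate 1 and to 1.27 without both dxo1 replicate 1 libraries. With polyA RNA as the reference NUDT12 turned to -0.05, TPS21 to 0.06, CDKB2;1 to -0.03, U2.5 to -1.78 and MIR168a to -0.64. With dxo1 polyA replicate 1 also left out, an alternative chosen after seeing the data, there were 0 calls, DXO1 turned to 1.11, U2.5 to -1.76 and MIR168a to -0.91. Without Col-0 capture replicate 1 WRKY46 turned to 0.15, U2.2 to 0.44 and AT3G05525 to 0.03, and without replicate 2 HSP18.2 to 0.68. The 16 named genes kept their direction in all 19 alternatives, which choosing genes with ratios that did not overlap favours. The split by annotated first base was not run, because no transcript sequence was used here. With 1 library left out in turn, DXO1 ranged from -4.51 to 1.27, WRKY46 from -4.12 to 0.15, HSP18.2 from -1.32 to 0.68, U2.2 from -4.31 to 0.44 and AT3G05525 from -5.84 to 0.03. Capture depth, at 1144896 counts in the shallowest library, limits what low genes can show.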
